A study of Mus musculus with 12 samples.

Results

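Imprinted genes are expressed from 1 parental copy in at least some tissues, and 40 of them were followed here in mouse dendritic cells in which the gene of the chromatin insulator protein CTCF was deleted. The genes were taken by symbol from the 55335 genes counted in every library, all 40 symbols were found, and they fall into 20 imprinted clusters or single loci. RNA was sequenced from bone marrow-derived dendritic cells (BMDCs) of C57BL/6 mice of both sexes, 8 to 12 weeks old, in 4 groups of 3 libraries. WT cells carried the tamoxifen-inducible Cre of the Rosa26 locus (CreER) and no floxed Ctcf. KO cells carried CreER with both Ctcf alleles floxed (CreER;CTCF fl/fl), and 4-hydroxytamoxifen was given on the first day of a 6-day culture in GM-CSF. WTL and KOL were the same cells after 100 ng/ml of lipopolysaccharide (LPS), a bacterial cell wall component, for 3 h. The floating cells were selected with beads against CD11c, the product of Itgax. Rosa26 drives CreER in every cell type of the culture, and the study describes the drug for the KO cultures and, as its text can be read, not for the WT cultures. On that reading the drug and the deletion cannot be told apart.

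Imprinting rests on DNA methylation that is laid down in only 1 parent's germ line at an imprinting control region. In the Igf2-H19 cluster, CTCF binds the unmethylated maternal control region and separates Igf2 from its enhancers. In other clusters, a long noncoding RNA made from the paternal copy, such as Airn or Kcnq1ot1, silences protein-coding neighbours on that copy. The libraries hold the sum of both alleles, with no variants to separate them. A change in level below is therefore a change in total RNA and says nothing of which allele it came from.

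Total expected counts, RSEM's estimated reads per gene, were 12769773 to 16586334 per library. Ctcf itself was counted over the whole gene, so transcripts that lack the deleted part are not separated. Its normalized counts (expected counts divided by the TMM-adjusted library size and scaled to the mean of the 12 libraries) were 1051, 987 and 975 in WT. They were 569.7, 562 and 516 in KO, 54.7% of the WT mean (log2 fold change -0.87 ± 0.08, adjusted p = 3.9e-07). The fit was edgeR's quasi-likelihood test over all 14008 genes that passed a low-count filter, with Benjamini-Hochberg adjustment, and "rose", "fell" and "called" below mean an adjusted p under 0.05 in it. A log2 fold change is given with its SE. Itgax had between 9271 and 24467 expected counts in every library, while the summed level of 6 B cell markers was at most 2.1 CPM (counts scaled to the library total). Summed over 9 dendritic cell markers the level was 9949.7 to 10339 CPM in WT and 7516 to 7705 CPM in KO, with 1 marker higher and 5 lower in KO. Over 7 monocyte and macrophage markers the sum was 24538 to 27260 CPM in WT and 43981 to 46522 CPM in KO, but only 2 of the 7 rose and 4 fell, with a median log2 fold change of -0.65. Of 8 neutrophil markers 7 were tested and 6 fell in KO, the sum going from 96.4 to 105 CPM in WT to 44.9 to 51.8 CPM in KO. The sum of 10 stromal markers was 4.21 to 5.1 CPM in WT and 20.8 to 22.6 CPM in KO, with 1 of 4 tested markers higher, and that of 6 endothelial markers 102 to 121 CPM and 157 to 161 CPM, with 2 of 4 higher and 1 lower. Their part in the differences below was not tested, and in bulk RNA fewer cells of a type and less RNA per cell cannot be told apart. WTL replicate 2 had 5.17% of its counts in rRNA genes, mitochondrial ones included, against 0.383% to 1.19% in the other 11 libraries. KOL replicate 2 had 26170.3 CPM of the monocyte and macrophage markers against 18398 and 20721 CPM in the other two KOL libraries, and calls that change without it are given with and without it.

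Of the 40 genes, 21 had a mean of at least 10 expected counts in at least 1 group. With at least 10 counts asked of every library of a group, 20 did, and the gene lost was Grb10. Airn, Phlda2, Sfmbt2 and Grb10 reached that mean only in some groups, Airn in KO, Phlda2 and Sfmbt2 in WTL and KOL and Grb10 in KOL. The expressed genes came from 12 of the 20 clusters. Compared per transcript length and depth, in TPM (each gene's share of all transcripts), the highest levels in WT were 259.6 TPM for Gnas, the stimulatory G-protein alpha subunit, and 94.5 TPM for the tetraspanin Cd81. Kcnq1ot1 had 0.153 TPM and Grb10 0.077 TPM, and Phlda2 was at 0 in WT. Commd1 (53.9 TPM), H13 (40.8 TPM) and Impact (37.2 TPM) followed Cd81. Igf2, H19 and Cdkn1c, genes of growth control for which imprinting is best known, were near or at 0.

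The 19 genes below that level belonged to 8 clusters with no expressed member and to parts of the Kcnq1ot1 and Peg13 clusters. They were the noncoding RNA H19 and the growth factor gene Igf2, Peg3, Usp29, Zim1, Kcnk9, Cdkn1c, Ascl2, Meg3, Dlk1, Rian, Mirg, Mest, Snrpn, Ndn, Nap1l5, Peg10, Sgce and Slc38a4. Zim1 and Mirg had 0 counts in all 12 libraries, which allows up to 3 counts in a library, and Snrpn had 1 count in 1 library. Igf2, whose insulation by CTCF is the textbook case, had at most 3 counts in any library, in KO as in WT. At this depth a change in Igf2 or H19 was not detectable, and no fold is given for either. The highest single values in this set were 13 counts of Dlk1, 9.62 of Mest and 8 of H19, all 3 in WTL replicate 2. That library also held 45, 39 and 24 counts of the stromal collagens Col1a1, Col1a2 and Col3a1, where the other 11 had at most 9, 2 and 7, and the part of stromal RNA in those counts was not tested. Mest shares 912 exonic bases with Copg2 on the opposite strand, so its few counts are uncertain.

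**Figure D1:**
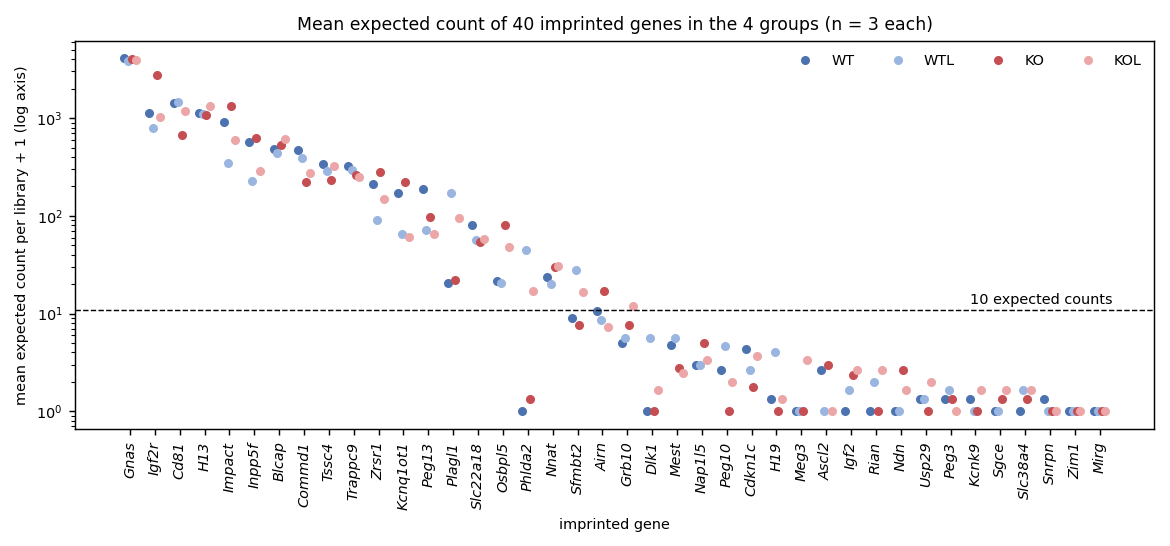
Mean expected count per library, plus 1, on a log axis for each of the 40 imprinted genes in WT, WTL, KO and KOL (n = 3 libraries each), ordered by the highest group mean; the dashed line is 10 expected counts. The 21 genes from Gnas to Grb10 reach the line in at least 1 group, and the 19 genes to their right stay below it in all 4.

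The first question was which of these genes differ between CTCF-deficient and control cells at rest. Of the 20 tested genes (Grb10 did not pass the filter), 5 rose and 4 fell in KO. Over all tested genes, 22.2% rose and 22.4% fell, and 5 and 4 of 20 are close to those shares. Past a 1.3-fold change 4 rose and 4 fell, against 17.3% and 17.2% over all genes. Their median log2 fold change was 0.21, against -0.01 over all genes. Osbpl5, Igf2r, Impact, Zrsr1 and Inpp5f were the genes that rose, and Commd1, Cd81, Peg13 and Slc22a18 those that fell. The calls of Inpp5f and Slc22a18 each held in only 5 of 14 other settings. With the WT and KO libraries fitted alone, Airn, Kcnq1ot1 and Blcap were also called higher, and Trappc9 and Tssc4 lower.

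In the Igf2r-Airn cluster, the protein-coding gene carried the larger counts and the clear change. Igf2r encodes the receptor that takes IGF2 to lysosomes and sorts lysosomal enzymes, and in mice it is expressed from the maternal copy in most tissues (chr17:12682406-12769664, minus strand). Its normalized counts were 953, 959 and 1037 in WT and 2513, 2455 and 2669 in KO. Every KO library lay above every WT library, at 259% of WT on average (log2 fold change 1.37 ± 0.10, adjusted p = 4.4e-08). After LPS the counts were 939, 937 and 865 in WTL and 1038, 1341 and 1015 in KOL. The KOL libraries were still above the WTL libraries, by a much smaller step (log2 fold change 0.31 ± 0.10, adjusted p = 0.02), which rested on KOL replicate 2: without it the difference was 0.17 and not called. Leaving out WTL replicate 3 also ended that call, at 0.27.

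Airn is the paternal noncoding RNA that starts in an intron of Igf2r and runs across its promoter on the other strand (chr17:12741311-12860136, plus strand). It was counted at 11.0, 5.87 and 8.64 in WT and 16.1, 14.4 and 13.9 in KO. The groups did not overlap, yet the difference missed the threshold (log2 fold change 0.80 ± 0.34, adjusted p = 0.068). In KOL Airn was at 7.53, 7.02 and 6.41, below every KO library (log2 fold change -1.07 ± 0.36, adjusted p = 0.018). That call ended without KO replicate 1 or KOL replicate 3, the values with 1 library left out running from -1.13 to -1.01. In WTL it spread from 4.05 to 10.8. Airn and Igf2r share no exonic bases, but the first exon of Airn lies in an intron of Igf2r, and where counting did not use the strand, unspliced RNA of one could be counted for the other. Airn reached a mean of 10 expected counts only in KO. Its higher level there, and its fall in KOL, were therefore partly built into its selection. Igf2r stood higher in KO past the test, and Airn short of it.

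The stretches before the starts of these 2 genes differ in their content of CG, the dinucleotide that carries DNA methylation. The starts themselves and the bases after them were not counted. The 200 bases from 250 to 51 before each RefSeq start (GRCm38.p6, that is mm10; RefSeq) are shown 5′ to 3′ with every CG in capitals.
Igf2r chr17:12769757-12769956 minus strand: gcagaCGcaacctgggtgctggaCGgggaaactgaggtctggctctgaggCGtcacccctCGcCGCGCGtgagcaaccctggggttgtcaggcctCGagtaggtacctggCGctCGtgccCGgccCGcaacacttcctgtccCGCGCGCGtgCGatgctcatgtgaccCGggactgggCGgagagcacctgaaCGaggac
Airn chr17:12741061-12741260 plus strand: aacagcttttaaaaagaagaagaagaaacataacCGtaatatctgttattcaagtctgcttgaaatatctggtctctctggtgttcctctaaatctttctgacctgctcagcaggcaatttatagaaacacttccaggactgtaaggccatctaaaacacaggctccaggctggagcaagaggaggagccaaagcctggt
The Igf2r stretch holds 20 CG, a number reached by 9.5% of the 32851 promoters in the table, and the Airn stretch holds 1. A RefSeq promoter was found for 32 of the 40 genes, with a median of 10 CG for the 18 that were expressed, 5 for the other 14 and 4 over the whole table. CTCF binding was not measured in these RNA libraries. The study measured it separately and reports that CTCF was lost from its sites, or strongly reduced there, in KO and KOL cells.

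In the Zrsr1-Commd1 cluster the 2 genes went opposite ways. Zrsr1, a retrogene related to the splicing factor U2AF, lies in an intron of Commd1 and is made from the paternal copy (chr11:22972005-22976496, plus strand). It had 178, 184 and 193 normalized counts in WT and 247, 286 and 255 in KO, with no overlap (log2 fold change 0.51 ± 0.12, adjusted p = 0.0032). Commd1, a protein of endosomal sorting and copper handling, is read from the opposite strand (chr11:22896136-22982382, minus strand). It fell from 431, 405 and 392 in WT to 215, 201 and 194 in KO, that is to 49.6% (log2 fold change -1.01 ± 0.11, adjusted p = 3.2e-06). After LPS Zrsr1 had 127, 101 and 89.3 in WTL and 139.8, 183 and 163 in KOL (log2 fold change 0.63 ± 0.14, adjusted p = 0.002). Commd1 had 522, 425 and 427 in WTL and 272, 276 and 347 in KOL (log2 fold change -0.61 ± 0.11, adjusted p = 0.00033). Both differences were thus called after LPS too, though in both TPM fits Zrsr1 at rest (0.27 and 0.39) and Commd1 after LPS (-0.63 and -0.56) missed the threshold, as did Zrsr1 after LPS on unscaled TPM (0.40).

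Commd1 and Zrsr1 share 412 exonic bases on opposite strands, and Commd1 shares 294 with the gene model Gm28048 on its own strand, so the split of reads is uncertain. Gm28048 also fell in KO (log2 fold change -1.09 ± 0.23, adjusted p = 0.0016), and Commd1 plus Gm28048 had 948 ± 152 normalized counts in WT (SD, n = 3) and 455 ± 6.9 in KO. With LPS the counts of Commd1 and Gm28048 parted. Commd1 was not called in WTL vs WT (0.16 ± 0.10, adjusted p = 0.2), while Gm28048 went from 692, 451 and 472 in WT to 2095, 2135 and 2337 in WTL.

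Around Peg13, the noncoding RNA changed more than the gene that holds it. Peg13 is a paternally expressed noncoding RNA within an intron of Trappc9 (chr15:72805600-72810324, minus strand), and its control region is a known CTCF binding site. It had 161, 165 and 167 normalized counts in WT and 79.9, 97.9 and 92.6 in KO, which is 54.9% (log2 fold change -0.87 ± 0.13, adjusted p = 5.6e-05). Trappc9, a subunit of the TRAPPII trafficking complex, was at 282, 302 and 263 in WT and 227, 240.0 and 258 in KO and was not called (log2 fold change -0.22 ± 0.12, adjusted p = 0.15). Peg13 and Trappc9 lie on the same strand and share no exonic bases. Unspliced RNA of Trappc9 could still be counted for Peg13, even where counting used the strand. After LPS neither was called between the genotypes, with Peg13 at 82.3, 71.5 and 92.5 in WTL and 64.5, 79.6 and 70.5 in KOL (log2 fold change -0.20 ± 0.14, adjusted p = 0.28). Without WTL replicate 1, Trappc9 was lower in KOL than in WTL (-0.27 with that library, -0.41 without it, adjusted p = 0.004) and higher in WTL than in WT (0.24 and 0.37, adjusted p = 0.0041). Kcnk9, a potassium channel gene of the same cluster, had at most 1 count in any library.

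**Figure D2:**
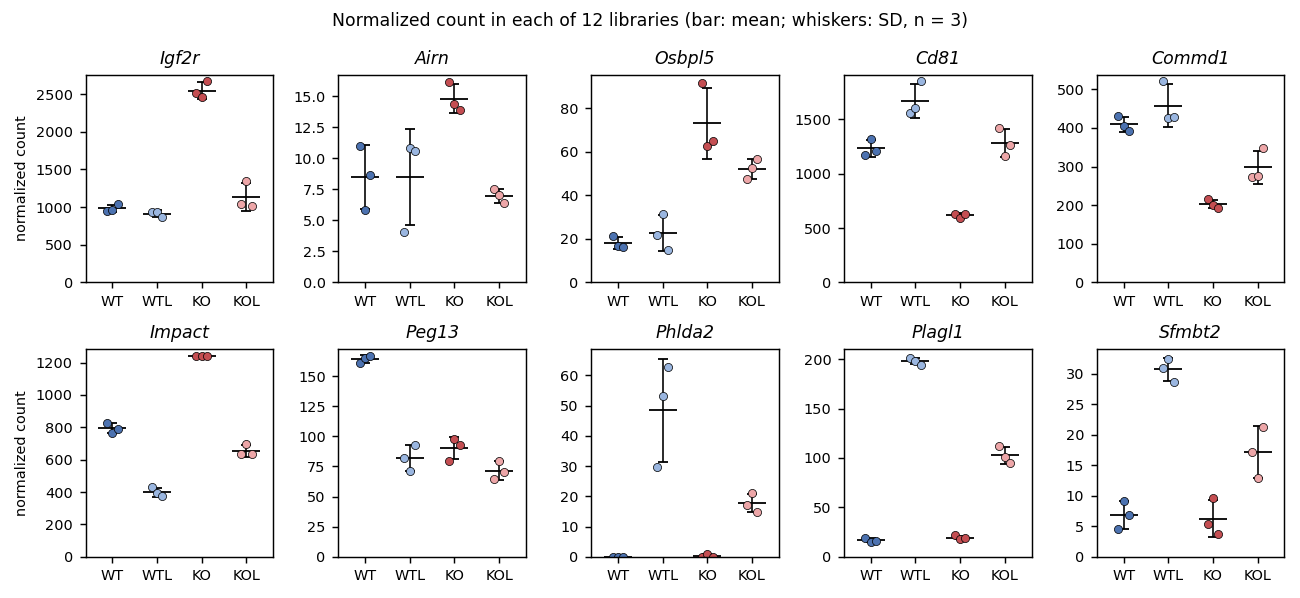
Normalized counts of 10 imprinted genes in each of the 12 libraries (y axes start at 0 and differ in scale), with the mean and SD of each group (n = 3). Igf2r and Osbpl5 are high in KO, Cd81 and Commd1 low, and Phlda2, Plagl1 and Sfmbt2 are high only after LPS, in WTL more than in KOL.

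The Kcnq1ot1 cluster on chromosome 7 is the largest here, with 8 genes of which 6 were expressed. Kcnq1ot1, the paternal noncoding RNA antisense to Kcnq1 (chr7:143203458-143296549, minus strand), had 161, 141 and 149.5 normalized counts in WT and 217, 216 and 177 in KO. All KO libraries were higher, but the difference missed the threshold (log2 fold change 0.44 ± 0.18, adjusted p = 0.057). The protein-coding genes of the cluster did not move as a block.

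Osbpl5, an oxysterol-binding protein that transfers lipid, had the largest fold of the 20 genes in KO. It went from 21.1, 16.8 and 16.4 in WT to 91.5, 62.4 and 64.8 in KO, 403% of the WT mean (log2 fold change 2.01 ± 0.25, adjusted p = 1.4e-05). After LPS it remained higher, with 21.6, 31.4 and 14.9 in WTL and 47.3, 52.7 and 56.6 in KOL (log2 fold change 1.20 ± 0.26, adjusted p = 0.0019). Cd81, a tetraspanin of the plasma membrane, went the other way. It had 1174, 1321 and 1207 in WT and 633, 596 and 631 in KO, 50.3% of WT (log2 fold change -0.99 ± 0.09, adjusted p = 6.9e-07). In the LPS groups it had 1558, 1609 and 1851 in WTL and 1424, 1165 and 1263 in KOL, again without overlap (log2 fold change -0.38 ± 0.09, adjusted p = 0.0031). These 3 genes, Osbpl5, Cd81 and Kcnq1ot1, span about the whole of the cluster, Cd81 lying 243.8 kb before and Osbpl5 460.4 kb beyond the start of Kcnq1ot1 in the direction of rising coordinates.

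Slc22a18, a transporter-like gene, had 68.9, 64.6 and 75.2 in WT and 45.8, 57.6 and 45.4 in KO (log2 fold change -0.49 ± 0.19, adjusted p = 0.046). Leaving out any 1 WT library or KO replicate 1 or 3 ended its call, the values with 1 library left out running from -0.61 to -0.43. Tssc4, which takes part in U5 snRNP assembly, had 311, 290.2 and 275 in WT and 217, 192 and 241 in KO. Its groups did not overlap, but it was not called (log2 fold change -0.43 ± 0.21, adjusted p = 0.11). Neither was called after LPS. Phlda2 was at 0 in WT and at 0 or 1 count in KO, so it has no fold at rest. Cdkn1c, the cyclin-dependent kinase inhibitor p57, and Ascl2 stayed at or below 6 and 3 counts in every library.

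Around this cluster lie genes that are not among the 40, and those that were called all fell in KO. Of 34 genes within 100 kb of its expressed members, 12 were tested. In KO 7 of the 12 fell, against 22.4% over all genes, and none rose, with a median log2 fold change of -0.52 against -0.01 over all genes. Among them were Tspan32, a tetraspanin gene (log2 fold change -0.58 ± 0.10, adjusted p = 0.00024), and the receptor genes Tnfrsf26 (-0.69 ± 0.09, adjusted p = 2.6e-05) and Tnfrsf23 (-0.53 ± 0.10, adjusted p = 0.00088). Tnfrsf22 and the antisense RNA E230032D23Rik fell too. E230032D23Rik overlaps Tnfrsf26, Tnfrsf22 and Tnfrsf23 on the opposite strand, so where counting did not use the strand these calls may not be separate. Kcnq1 itself was among the 7 that fell but was low, at a mean of 12.6 normalized counts in WT and 1.52 in KO. It reached 10 normalized counts in WT alone, so its fall was partly built into the filter and the size of its fold is uncertain. Around Igf2r and Airn, 4 of 18 such genes were tested and 2 fell, Acat2, a cytosolic acetyl-CoA acetyltransferase (-0.83 ± 0.09, adjusted p = 2.6e-06) and its near copy Acat3 (-0.92 ± 0.32, adjusted p = 0.03), between which reads may be split. Igf2r thus rose while none of its tested neighbours did, and Osbpl5 rose in a stretch where the other called genes fell.

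**Figure D3:**
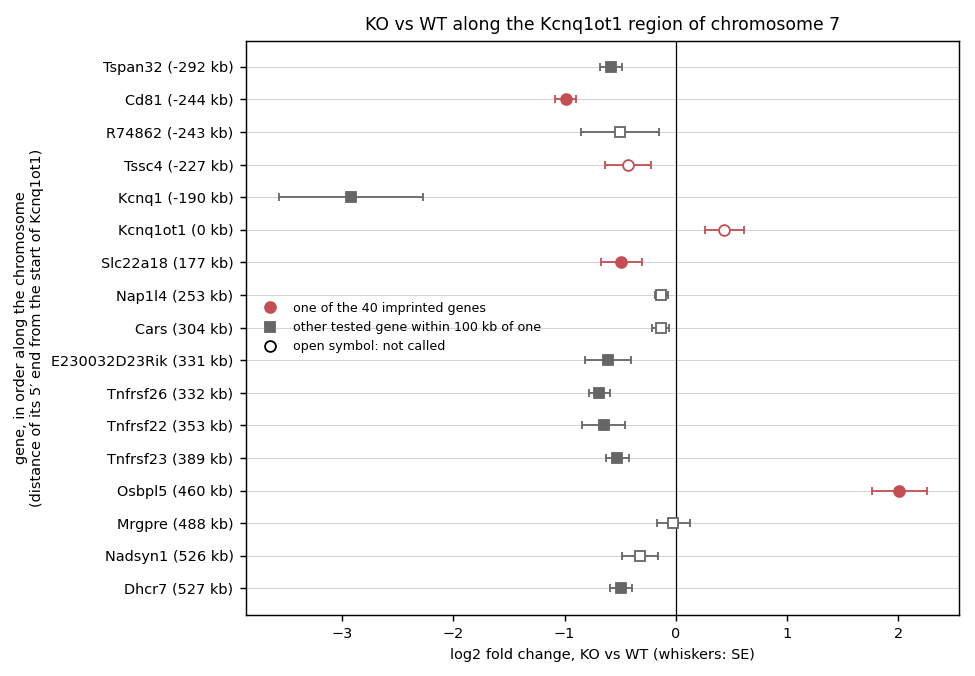
Log2 fold change of KO vs WT (x axis, edgeR estimate; whiskers, SE) for each tested gene of the Kcnq1ot1 region in chromosome order, with the distance of its 5′ end from the start of Kcnq1ot1 in brackets; circles are among the 40 imprinted genes, squares are other genes within 100 kb of an expressed one, and open symbols were not called. Osbpl5 stands alone at 2.01 on the right while the other called genes lie between -0.49 and -2.92. The -2.92 is that of Kcnq1, a low gene whose fall was partly built into the filter.

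Of the remaining loci, Impact differed between the genotypes both at rest and after LPS. Impact, an inhibitor of the amino acid-sensing kinase GCN2 that is made from the paternal copy, had 826, 767 and 792 in WT and 1242, 1240.5 and 1239 in KO (log2 fold change 0.64 ± 0.07, adjusted p = 3.1e-06). In the LPS groups it had 429, 392 and 375 in WTL and 632, 697 and 632 in KOL (log2 fold change 0.72 ± 0.07, adjusted p = 2.3e-06). Its interaction of genotype and LPS was 0.07 ± 0.10 (adjusted p = 0.68) on the log2 scale. Inpp5f, a phosphoinositide phosphatase, had 516, 509.9 and 477 in WT and 581, 585 and 592 in KO. That small rise (log2 fold change 0.23 ± 0.07, adjusted p = 0.019) was lost when any 1 of the 6 libraries was left out, with values from 0.16 to 0.23, and its sign turned to -0.02 when TPM were used with no further scaling. After LPS it had 255, 237 and 285 in WTL and 319, 325 and 303 in KOL (log2 fold change 0.29 ± 0.08, adjusted p = 0.01), a call lost without WTL replicate 2, at 0.22.

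Nnat and Blcap, which share a locus, showed no called difference at rest. Nnat, a proteolipid of the endoplasmic reticulum, had 17.5, 23.5 and 18.1 in WT and 28.7, 28.8 and 22.2 in KO. Its highest value, 56.2, was in KOL replicate 2, where the other KOL libraries had 22.6 and 21.4. Blcap, a small membrane protein, was at 440.0, 392 and 417 in WT and 509, 479 and 479 in KO (log2 fold change 0.23 ± 0.10, adjusted p = 0.085), and in the LPS groups at 430.2, 529.7 and 539 in WTL and 729, 565 and 695 in KOL, where it was called (log2 fold change 0.41 ± 0.10, adjusted p = 0.0054). Gnas was the most abundant of the genes at 3362, 3689 and 3614 in WT and 3655, 3613 and 3969 in KO, and these groups overlapped (log2 fold change 0.08 ± 0.08, adjusted p = 0.5). H13, a signal peptide peptidase, had 1018, 1000.5 and 954 in WT and 1013, 975 and 1019.9 in KO (log2 fold change 0.02 ± 0.13, adjusted p = 0.93). Gnas shares 1469 exonic bases with Gm20721 on the opposite strand, and their sum, 4049 ± 149 in WT and 4274 ± 154 in KO, was also close. Grb10, an adaptor that inhibits insulin and IGF1 receptor signalling, was not tested. It had 11, 16 and 6 expected counts in KOL and at most 9 in any other library.

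After LPS, 6 of the 20 genes were higher in KOL than in WTL and 5 were lower. Over all genes 21.4% were higher and 23.3% lower, and past a 1.5-fold change 3 were higher and 4 lower, against 12.5% each way over all genes. The median log2 fold change was -0.01 for the 20 genes and -0.04 for all. Zrsr1, Osbpl5, Impact, Igf2r and Inpp5f were higher, as at rest, with Blcap added. Commd1 and Cd81 were lower, as at rest. The other 3 that were lower, Phlda2, Plagl1 and Sfmbt2, are those that LPS raised most, and of them Phlda2 and Sfmbt2 reached 10 counts only after LPS. H13 was not called (0.24 ± 0.13, adjusted p = 0.13), but without KOL replicate 2 it was higher, at 0.40 (adjusted p = 0.0028). Genes called at rest and genes called after LPS come from separate libraries, but a call in only 1 of these 2 comparisons does not show that the effects differ.

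**Figure D4:**
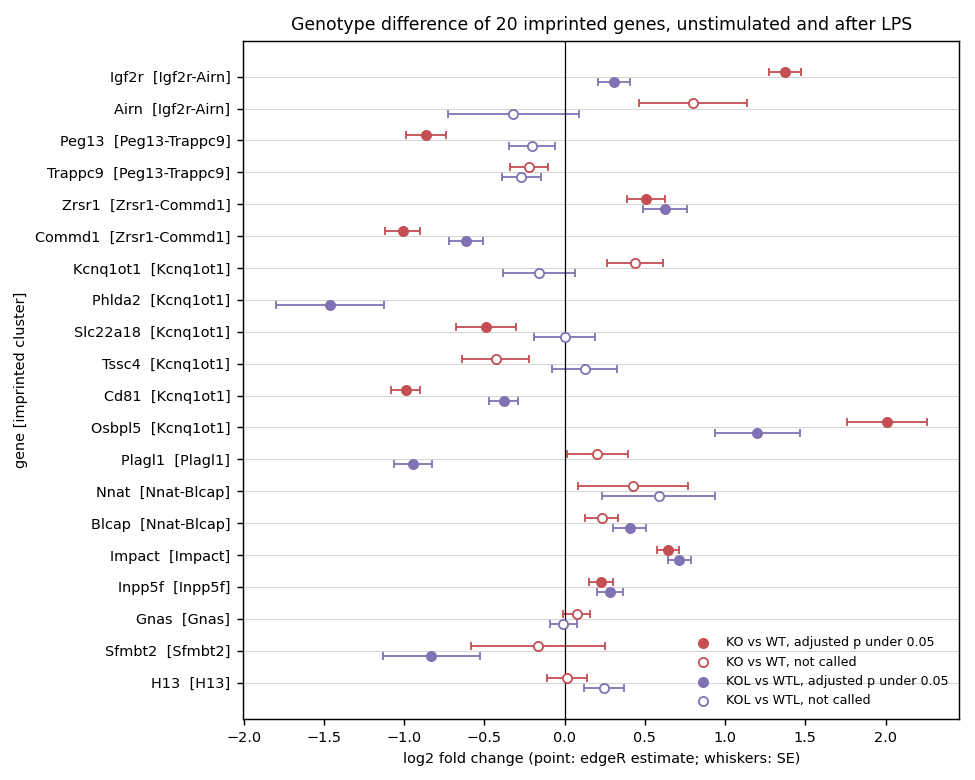
Log2 fold change (x axis, edgeR estimate; whiskers, SE) of KO vs WT and KOL vs WTL for the 20 tested imprinted genes, by cluster; filled symbols have an adjusted p under 0.05, and Phlda2 has no point at rest because both groups were at 0 or 1 count. Osbpl5 and Impact lie to the right and Cd81 and Commd1 to the left in both, Igf2r moves from 1.37 to 0.31, Plagl1 from 0.20 to -0.95, and the Inpp5f point at rest (0.23) turns to -0.02 on unscaled TPM.

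In control cells, Phlda2, Plagl1 and Sfmbt2 were the imprinted genes that rose past 2-fold with LPS. In WTL against WT, 7 genes rose and 5 fell, against 30.0% and 30.2% over all genes, and past a 2-fold change 3 rose and 1 fell, against 12.6% and 9.99%. Phlda2 and Sfmbt2 reached 10 counts only in the LPS groups, so a difference was built into their selection, and without them and Airn 5 of 17 genes rose and 5 fell, 1 each way past 2-fold. Phlda2, a pleckstrin homology domain protein that restrains placental growth, had 0 counts in all 3 WT libraries and 29.7, 53.1 and 62.7 normalized counts in WTL. Against a floor of 3 counts per library it was at least 18.5-fold higher (adjusted p = 6.5e-07). Plagl1, a zinc-finger transcription factor made from the paternal copy, went from 19.3, 15.1 and 16.4 in WT to 201, 198 and 195 in WTL (log2 fold change 3.54 ± 0.15, adjusted p = 5e-11). Sfmbt2, a Polycomb-group protein, went from 4.59, 9.22 and 6.91 to 31.0, 32.5 and 28.7 (log2 fold change 2.12 ± 0.33, adjusted p = 7.6e-05). For all 3, every WTL library was above every WT library.

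After LPS, CTCF-deficient cells showed the same 3 genes at lower levels than control cells. None of the 3 was called between the genotypes at rest. By edgeR's test the interaction of genotype and LPS was called for Plagl1. It was not for Sfmbt2 (-0.66 ± 0.52, adjusted p = 0.43) or Phlda2 (adjusted p = 0.3), though Phlda2 was called lower in both TPM fits. In KOL Phlda2 had 17.2, 21.1 and 14.9 normalized counts, at least 6.37-fold above the floor in KO and below every WTL library (log2 fold change -1.47 ± 0.34, adjusted p = 0.0035 for KOL vs WTL). Plagl1 had 21.5, 18.2 and 18.5 in KO and 112, 101 and 95.0 in KOL. On average KOL reached 51.8% of WTL (log2 fold change -0.95 ± 0.12, adjusted p = 1.5e-05). Sfmbt2 had 5.38, 9.60 and 3.71 in KO and 17.2, 12.9 and 21.4 in KOL. Its difference from WTL (log2 fold change -0.83 ± 0.30, adjusted p = 0.037) was called in only 2 of 11 other settings, and ended with any 1 WTL library or KOL replicate 1 or 2 left out, the values running from -1.02 to -0.67. Plagl1 missed the threshold in both comparisons of TPM (log2 difference -0.61 with libraries scaled to 1 median).

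The promoter stretches of Phlda2 and Plagl1, the 2 genes with the largest LPS response, are shown in the same form as those above.
Phlda2 chr7:143502575-143502774 minus strand: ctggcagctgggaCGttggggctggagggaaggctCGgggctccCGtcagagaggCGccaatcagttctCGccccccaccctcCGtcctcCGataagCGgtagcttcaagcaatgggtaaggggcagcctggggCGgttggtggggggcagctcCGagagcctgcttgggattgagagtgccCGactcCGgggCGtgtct
Plagl1 chr10:13090582-13090781 plus strand: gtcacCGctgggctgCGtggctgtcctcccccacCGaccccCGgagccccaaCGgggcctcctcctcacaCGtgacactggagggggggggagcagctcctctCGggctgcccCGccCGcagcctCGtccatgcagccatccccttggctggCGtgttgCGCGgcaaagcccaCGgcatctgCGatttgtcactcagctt
They hold 13 and 15 CG, reached by 22.1% and 17.8% of all promoters. The RefSeq start of Phlda2 lies 626 bases and that of Plagl1 30328 bases inside the annotated 5′ end, so other starts exist.

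Genes that LPS lowered formed the other side. In WTL Impact fell to 50.2% of WT (log2 fold change -0.997 ± 0.07, adjusted p = 2.6e-08), and Peg13 to 50% (log2 fold change -0.999 ± 0.13, adjusted p = 1.2e-05). Inpp5f fell to 51.7% (log2 fold change -0.95 ± 0.08, adjusted p = 8.6e-08). Kcnq1ot1 had 78.2, 89.9 and 56.4 normalized counts in WTL, 49.8% of WT (log2 fold change -1.01 ± 0.20, adjusted p = 0.00053). Zrsr1 fell to 57.1% (log2 fold change -0.82 ± 0.13, adjusted p = 0.0001). In each of the 5, no WTL library reached the lowest WT library. All 5 are paternally expressed genes or, for Inpp5f, have a paternal isoform, as background from other tissues, as are Plagl1 and Sfmbt2, which rose. Airn, also paternal, was not called in WTL against WT (0.05 ± 0.38, adjusted p = 0.92), and a link of these 5 falls to parental origin was not tested. The same 5 fell in KOL against KO, where 9 of the 20 genes rose and 7 fell (33.6% and 33.9% over all genes). Past a 2-fold change these were 4 and 3 (15.1% and 13% over all genes). Without Airn, Phlda2 and Sfmbt2, each of which reached 10 counts in only 1 of the 2 groups, 7 rose and 6 fell, 2 each way past 2-fold. Kcnq1ot1 fell further there, from 217, 216 and 177 in KO to 49.5, 92.4 and 59.8 in KOL (log2 fold change -1.60 ± 0.20, adjusted p = 5.7e-06). Impact fell by 0.92 ± 0.07, Inpp5f by 0.89 ± 0.08 and Zrsr1 by 0.70 ± 0.12 on the log2 scale, while the fall of Peg13 (-0.33 ± 0.14, adjusted p = 0.045) was called in only 4 of 14 other settings and ended without KO replicate 2 or 3 or KOL replicate 1 or 3, the values with 1 library left out running from -0.42 to -0.26. Igf2r (-1.17 ± 0.10, adjusted p = 8.8e-08) and Airn (-1.07 ± 0.36, adjusted p = 0.018) fell in KOL against KO and were not called in WTL against WT. On unscaled TPM, however, Igf2r was called lower in WTL against WT as well, at -0.58.

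The smaller LPS rises depend on the scaling. Relative to the typical gene, as TMM sets it, Cd81 (0.44), H13 (0.32), Gnas (0.30) and Blcap (0.27) rose in WTL, but on TPM with no further scaling their log2 differences were -0.11, -0.11, -0.20 and -0.26. On that scale the median of all genes moved by -0.44 in WTL vs WT and -0.38 in KOL vs KO, and all genes split 1710 up to 7544 down in WTL vs WT, where TMM gave 4209 to 4224. With the TPM of every library scaled to 1 median, all 4 values were again above 0 in WTL, but that of Blcap was not called. The Blcap call held in only 4 of 14 other settings. It was also lost in DESeq2, with no low-count filter and with the replicate block. With 1 library left out, the count-based values ran from 0.15 to 0.36 for Blcap, 0.22 to 0.43 for H13 and 0.18 to 0.38 for Gnas. The calls of Blcap and H13 ended without any 1 WT library or WTL replicate 2 or 3, and that of Gnas without WT replicate 1 or 3. Phlda2, Plagl1 and Sfmbt2 rose under every setting in which they were tested. In KOL against KO, 6 more genes rose beside these 3. They were Cd81 (1.05 ± 0.09, adjusted p = 1.6e-07), Tssc4 (0.72 ± 0.21, adjusted p = 0.0075), Commd1 (0.56 ± 0.11, adjusted p = 0.00054), H13 (0.55 ± 0.13, adjusted p = 0.0013), Blcap (0.44 ± 0.10, adjusted p = 0.0016) and Gnas (0.22 ± 0.08, adjusted p = 0.035), of which Blcap and Gnas turned to -0.06 and -0.09 on unscaled TPM. The calls of Tssc4 (0.10), Commd1 (0.24) and H13 (0.21) were also lost on that scale, and that of Tssc4 with scaling to 1 median (0.55). Tssc4 had 453, 242 and 372 in KOL and H13 1654, 1141 and 1610.2, with the lowest value of each in KOL replicate 2. The rise of Tssc4 was lost without KOL replicate 1, at 0.51, and that of Gnas without KO replicate 1 or 2 or KOL replicate 1 or 3, its values with 1 library left out running from 0.19 to 0.26. Gm20721, which overlaps Gnas, had 111, 635 and 177 normalized counts in KOL. The sum of Gnas and Gm20721 was 4274 ± 154 in KO and 4659 ± 64.5 in KOL (SD, n = 3). Slc22a18 was not called (0.35 ± 0.19, adjusted p = 0.12) but rose without KOL replicate 2, by 0.48 (adjusted p = 0.042).

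**Figure D5:**
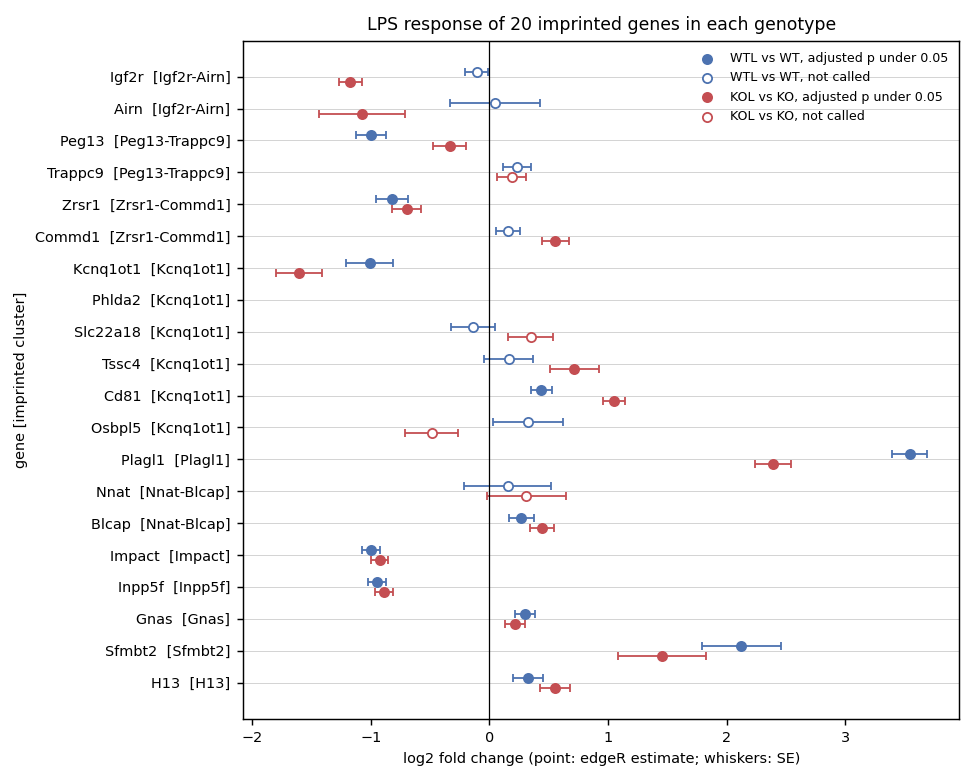
Log2 fold change (x axis, edgeR estimate; whiskers, SE) of WTL vs WT and KOL vs KO for the imprinted genes tested; filled symbols have an adjusted p under 0.05, and Phlda2 has no point because it was at the floor without LPS. Plagl1 and Sfmbt2 lie far to the right and Impact, Inpp5f, Zrsr1 and Kcnq1ot1 to the left in both genotypes; the rises of Cd81, Blcap, Gnas and H13 in WTL and of Blcap and Gnas in KOL turn below 0 on unscaled TPM.

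Whether LPS acted differently in the 2 genotypes was tested as the interaction of genotype and LPS. Of the 20 genes, 4 were called, against 17.4% over all genes. For Igf2r the log2 response was -0.11 ± 0.10 (adjusted p = 0.37) in WT and -1.17 ± 0.10 (adjusted p = 8.8e-08) in KO, a difference of -1.07 ± 0.14 (adjusted p = 0.00013). For Plagl1 it was 3.54 ± 0.15 (adjusted p = 5e-11) in WT and 2.39 ± 0.15 (adjusted p = 4.8e-09) in KO, a difference of -1.15 ± 0.23 (adjusted p = 0.0031). Cd81 rose more in KO, by 0.61 ± 0.13 (adjusted p = 0.0045), and Peg13 fell less, by 0.67 ± 0.19 (adjusted p = 0.027). Without KOL replicate 2, 5 genes instead of 2 responded more positively in KO, H13 (0.23 with and 0.38 without it), Tssc4 (0.55 and 0.76) and Commd1 (0.40 and 0.45) being added, and Kcnq1ot1 (-0.59 and -0.88) joined Igf2r and Plagl1 on the other side. Commd1 (0.50) was also called without WTL replicate 1. The Peg13 call was lost without WTL replicate 2, KO replicate 1 or KO replicate 3, the values with 1 library left out running from 0.57 to 0.77.

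Other imprinted genes, not among the 40, were listed to see whether the set is typical. Of 63 such genes, 31 were tested, and 6 rose and 15 fell in KO, where 22.2% rose and 22.4% fell over all genes. The risen genes include Rasgrf1, at a mean of 5.53 normalized counts in WT and 12.7 in KO. The fallen genes include Kcnq1, at 12.6 in WT and 1.52 in KO. For such low genes the direction was partly built into the low-count filter, and no count without them was made. The median log2 fold change of the 31 genes was -0.24, against 0.21 for the 20 genes and -0.01 over all genes. The largest changes among those with at least 100 normalized counts were in Adam23, an integrin-binding membrane protein at 21.5% of WT, the glutaminyl cyclase Qpct at 27.1%, the creatine synthesis enzyme Gatm at 301% and the phospholipid flippase Atp10a at 37.5%. All 4 had adjusted p of at most 5e-06. The list shares some genes with the neighbours above, such as Tspan32 and Tnfrsf23.

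Among genes that keep imprints, 28 of 31 listed were tested, with 6 higher and 8 lower in KO (22.2% and 22.4% over all genes, to which these counts are near) and a median log2 fold change of 0.01. The histone methyltransferase Setdb1 rose to 182% of WT (log2 fold change 0.86 ± 0.08, adjusted p = 3.6e-07) and the de novo DNA methyltransferase Dnmt3a to 172% (0.78 ± 0.11, adjusted p = 3.4e-05). Of the Polycomb repressive complex, Ezh2 fell (-0.83 ± 0.08, adjusted p = 9.8e-07) and Eed rose (0.61 ± 0.07, adjusted p = 4.3e-06). In the IGF pathway that many imprinted genes act on, 11 of 18 listed genes were tested, and 6 rose and 2 fell (22.2% and 22.4% over all genes). The RNA-binding protein Igf2bp2 went to 460% of WT (2.20 ± 0.11, adjusted p = 1.3e-09), Igfbp4 to 197% and the receptor Igf1r to 160%, while Irs2, an adaptor of insulin signalling, fell to 72.5%. Over the 11 genes the log2 fold changes in KO ran from -4.04 to 2.20. The gene at -4.04 missed the rule for naming genes, which asks for a call, a minimum level and no overlap. It had a mean of 17.1 normalized counts in WT and 0.917 in KO. Its fall, counted among the 2, was partly built into the low-count filter. That end of the range is therefore uncertain. In KO the receptor genes Igf2r and Igf1r thus both rose, while Igf2, which encodes a ligand of both, had at most 3 counts in any library. Genes of other ligands are not described here.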

How the data were processed

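RNA from 12 libraries, 3 each of WT, WTL, KO and KOL, was grouped by the sample labels. Per the methods and the submitters' processing notes, the authors used Trim Galore for trimming, STAR for alignment to mm10, RSEM for gene quantification and DESeq2 for testing. The notes give STAR 2.5.1 and the study's reporting summary a later version, so the version is unsettled. For each library the authors deposited RSEM expected counts, TPM and FPKM per gene, with gene lengths. FPKM was not used. The labels name rRNA depletion and the methods a stranded poly(A) kit, and whether RSEM used the strand is not given in the sources used here, so overlapping genes are uncertain. The design text calls the triplicates biological, but no label ties a library to an animal or culture. The p-values thus rest on the spread between these libraries, pooled over all 12 in 1 fit. That spread was unlike between groups. Over pairs of replicates, chi-square per degree of freedom was 1.7 to 1.92 in KO and 3.33 to 4.75 in WT. It was 31.11 to 86.04 in WTL and 8.78 to 31.38 in KOL. A p-value for KO vs WT is therefore not one of the spread of KO and WT alone.

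Expected counts were rounded and fitted with edgeR 4.0.16 (TMM, filterByExpr, quasi-likelihood test, all 12 libraries in 1 fit, R 4.3.3), with Benjamini-Hochberg adjustment over 14008 genes and an adjusted p of 0.05. The code was tested on simulated data. Alternatives were DESeq2 1.42.0, its size factors, other filters, the comparison's libraries alone, the replicate number as a block, fold cutoffs, limma 3.58.1 on log2(TPM + 1) and each library left out. The TPM fit with libraries scaled to 1 median was added after the data were seen. All 40 genes are accounted for: those with a mean of 10 expected counts in a group are described singly, and from each other list or neighbourhood up to 4 called genes with a mean of at least 100 normalized counts and no overlap between KO and WT are named, largest fold first. Acat3, Kcnq1, Tnfrsf22, E230032D23Rik and the overlapping gene models were named after their values were seen. The members and lists were chosen with earlier results of these data known. Positions are from GENCODE M21 on mm10. Intervals for counting error are not given, and a floor of 3 counts covers counting error only.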

Additional observations from a re-analysis of the deposited data

Results flagged for a closer look

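The LPS response differed between the genotypes for 4 of the imprinted genes, by edgeR's test of the interaction with Benjamini-Hochberg adjustment. The log2 response in KO minus that in WT was -1.07 for Igf2r (SE 0.14, adjusted p = 0.00013). For Igf2r the 3 KOL libraries lay below the 3 KO libraries, and the WTL libraries only slightly below the WT libraries. On unscaled TPM Igf2r was also called lower in WTL than in WT, at -0.58. The difference in response was -1.15 for Plagl1 (SE 0.23, adjusted p = 0.0031), which rose in both genotypes and less in KO. For Cd81 it was 0.61 (SE 0.13, adjusted p = 0.0045) and for Peg13 0.67 (SE 0.19, adjusted p = 0.027). The values of Igf2r and Cd81 were called in all 19 other settings, that of Plagl1 in 17 and that of Peg13 in 15. The highest adjusted p over those settings was 0.0017 for Igf2r, 0.018 for Cd81, 0.078 for Plagl1 and 0.074 for Peg13.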

How the results depend on the processing

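Of the called differences of single genes, 637 of the values in other settings kept direction and call, 87 lost the call and 7 turned sign. All 7 that turned came from limma on log2(TPM + 1) without further scaling: Inpp5f in KO vs WT (-0.02), Cd81 (-0.11), Blcap (-0.26), Gnas (-0.205) and H13 (-0.105) in WTL vs WT, and Blcap (-0.055) and Gnas (-0.092) in KOL vs KO. None turned with the libraries scaled to 1 median. In that unscaled fit 3 genes were higher and 2 lower in KOL vs WTL (from 6 and 5), 2 higher in WTL vs WT (from 7) and 3 higher in KOL vs KO (from 9), and with scaling to 1 median 2 were lower in KOL vs WTL and 1 had a higher interaction (from 2). Over all genes the unscaled fit called 1807 higher and 3151 lower in KO vs WT and 2245 and 6935 in KOL vs KO. Fold cutoffs of 1.5 (KOL vs WTL) and 2 (LPS) left 3 higher in KOL vs WTL, 3 higher and 1 lower in WTL vs WT, and 4 higher and 3 lower in KOL vs KO (from 7). With the comparison's own libraries alone, 8 genes were higher in KO vs WT (from 5) and 6 lower (from 4). Asking for 10 counts in every library left 3 lower in KOL vs WTL. The causes were not tested, apart from the cutoffs, which remove calls by construction.

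With 1 library left out, 4 genes were higher and 3 to 4 lower in KO vs WT, 5 to 7 and 4 to 5 in KOL vs WTL, 4 to 8 and 5 in WTL vs WT, 7 to 10 and 5 to 7 in KOL vs KO, and 1 to 5 and 2 to 3 for the interaction. The count of 4 in WTL vs WT came without WT replicate 1 or 3, and the count of 1 for the interaction without WTL replicate 2, KO replicate 1 or KO replicate 3. Libraries with the same replicate number did not deviate together (correlations -0.33 to 0.13 over 18 pairs, 1 above 0.1). With the replicate block, 5 genes were higher and 3 lower in KO vs WT, Slc22a18 being lost. Depth limits the 19 genes with under 10 counts, for which no change could be measured.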
